A study of Mus musculus with 6 samples.

Results

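The Myc, Max and Mxd genes encode a network of transcription factors that share a basic helix-loop-helix leucine zipper (bHLHZip) and bind DNA as pairs. The 9 members described here, Myc, Mycl, Max, Mxd1, Mxd3, Mxd4, Mxi1, Mnt and Mga, were picked by gene symbol, by a rule that sets no threshold on measured values, from a table of 22272 distinct symbols. All 9 were present, and the choice was made with earlier results of these data known. RNA was sequenced from C2C12 cells, a line of mouse myoblasts, taken undifferentiated at day 0 in 6 libraries. In 3 libraries the cells overexpressed ChREBP-beta, the short and highly active form of the glucose-responsive factor encoded by Mlxipl, and the 3 control libraries came from cells labelled wild type with green fluorescent protein (GFP). The sources used here do not give the means of overexpression, whether a line was 1 clone or whether replicates were separate cultures, so each p-value reflects only library-to-library spread, possibly technical.

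Max is the hub of the network. Paired with Max, Myc and its relative Mycl (L-Myc) switch on genes of growth, ribosome production and cell division at the DNA sequence called the E-box, whereas the Mxd proteins (Mxd1, Mxi1, Mxd3 and Mxd4) and Mnt occupy the same sites with Max and bring in the Sin3 corepressor complex. Mga pairs with Max inside a Polycomb complex, PRC1.6, that silences germ cell genes. ChREBP belongs to the wider network: it binds related E-box pairs with the Max-like protein Mlx, a partner that Mxd1, Mxd4 and Mnt can also use. In muscle precursors Myc favours division and opposes fusion into fibres, and Mxd proteins are best known from cells that stop dividing.

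Mlxipl itself matched the labels of all 6 libraries, with 222, 215 and 220 CPM (counts scaled to a common library size) in the ChREBP-beta libraries and 0.576, 0.719 and 0.501 CPM in the GFP libraries. Deposited counts per library ran from 17600238 to 19163834. All 8 myoblast markers examined were lower with ChREBP-beta, with Myog at 0 in each ChREBP-beta library, and their summed level was 228 to 235 CPM with ChREBP-beta against 577 to 604 CPM with GFP. Markers of fibroblasts summed to 875 to 900 CPM with ChREBP-beta and 827 to 861 CPM with GFP, mostly from Cd34 and Ly6a. This sum hides changes in both directions. Of the 6 fibroblast markers tested, Pdgfra, Dpt, Pi16 and Ly6a were called higher with ChREBP-beta and Dcn and Cd34 lower. Markers of lung and liver, foreign to a myoblast culture, were present in all ChREBP-beta libraries and varied widely among the GFP libraries. The 7 lung epithelial genes summed to 73.2 to 94.3 CPM with ChREBP-beta and to 0.889, 139 and 96.8 CPM in GFP replicates 1 to 3. The 8 hepatocyte genes summed to 19.6 to 26.7 CPM with ChREBP-beta and to 0.576, 1.11 and 31.9 CPM in GFP replicates 1 to 3. Blood markers summed to 6.30 to 10.3 CPM with ChREBP-beta and 4.08 to 11.2 CPM with GFP, and endothelial markers to 3.24 to 7.34 CPM and 0.733 to 5.29 CPM. The part of these markers in the changes below was not tested. GFP replicate 1 was nearly free of both lung and liver transcripts, and GFP replicate 2 of the liver ones only. Without GFP replicate 1, the members' log2 fold changes were 1.03 for Myc, -4.58 for Mycl, 0.42 for Max, -1.15 for Mxd1, 0.07 for Mxd3, 0.09 for Mxd4, 0.46 for Mxi1, 0.38 for Mnt and 0.33 for Mga. Of the members' calls, only that of Mxd4 was then lost (edgeR adjusted p = 0.0642). Some genes counted in the lists below lost their calls as well. In bulk libraries, fewer cells of a type and less RNA per cell cannot be told apart.

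Myc was higher and Mycl and Mxd1 were lower in cells with ChREBP-beta, while Max, Mxi1, Mnt and Mga were modestly higher and Mxd3 did not pass the test. In the fit over all genes (quasi-likelihood test of edgeR, p adjusted by Benjamini-Hochberg and under 0.05), 6 members were higher, 2 lower and 1 was not called. Of the 12166 genes tested 58.7% were called, 29.5% higher and 29.3% lower, so a call alone is common in this comparison. The ChREBP-beta libraries lay above all GFP libraries for 6 members and below them for 2, where 31.3% of all genes tested were separated upwards and 32.0% downwards, 63.2% in all. Mycl passed the filter on low counts only through its GFP libraries, so its call was in part fixed by the filter. The median absolute log2 fold change over all genes tested was 0.23, and the middle 50% of genes lay between -0.27 and 0.21.

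**Figure D1:**
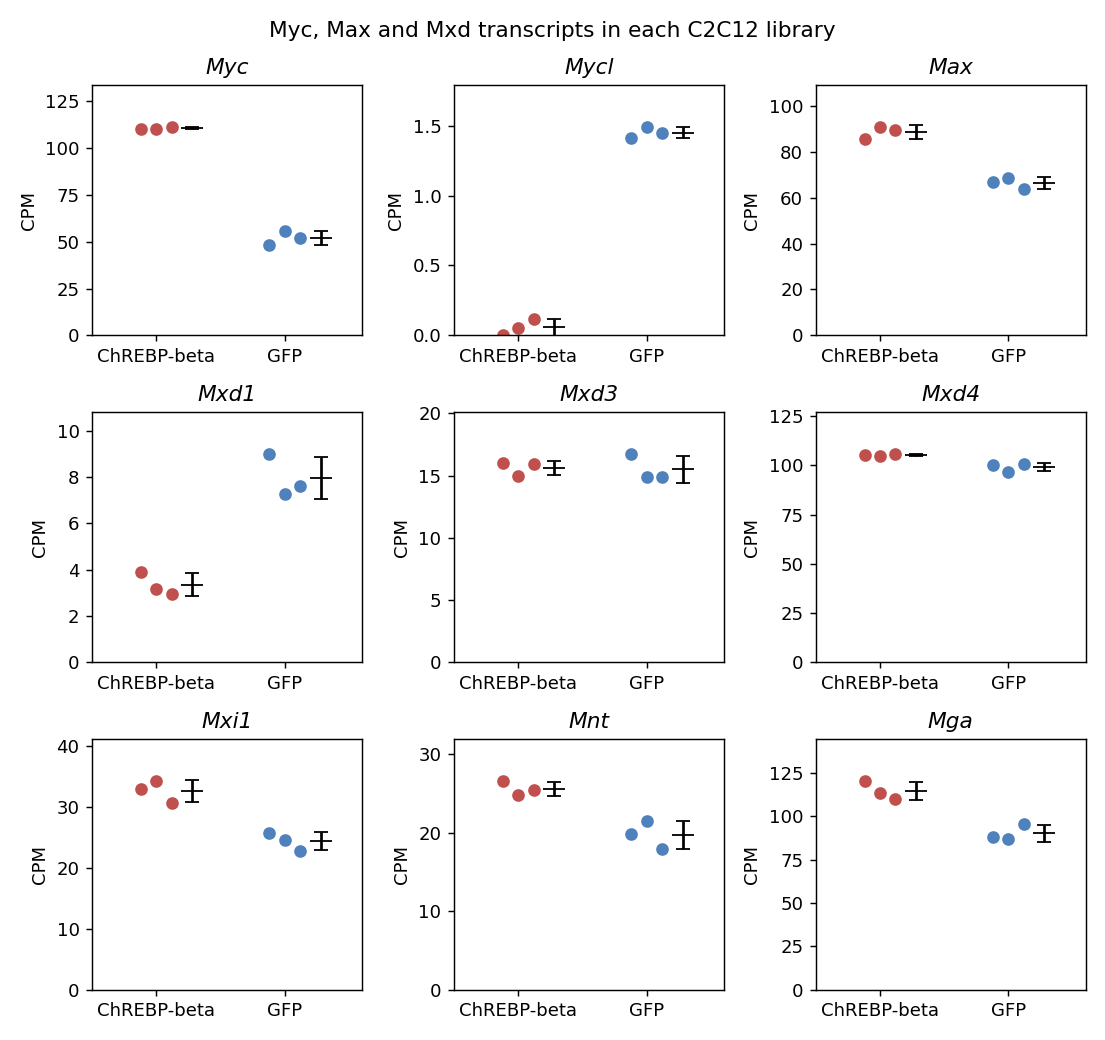
CPM of each member in every library, with ChREBP-beta left of GFP, and a black mark with bars for the mean and SD (n = 3). Each vertical axis starts at 0 and has its own scale. Mxd3 is the member whose groups overlap, Mycl and Mxd1 are lower with ChREBP-beta, and the other 6 are higher.

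The annotated promoters of the members differ in the E-box, the site at which these proteins and ChREBP act, and are shown for the members with the E-box CACGTG and for those that fell. RefSeq start sites (GRCm38.p6) were found for 8 of the 9 members, with 10 windows in all, and Myc was not matched. Each window runs from 250 bases before the start site to 50 bases after it, and the sequence searches and base content below use all of it. Each sequence below is printed 5′ to 3′ from 250 bases before the start site to only 30 bases after it. CACGTG, or its variant CACGCG on either strand, is in capitals.
Max: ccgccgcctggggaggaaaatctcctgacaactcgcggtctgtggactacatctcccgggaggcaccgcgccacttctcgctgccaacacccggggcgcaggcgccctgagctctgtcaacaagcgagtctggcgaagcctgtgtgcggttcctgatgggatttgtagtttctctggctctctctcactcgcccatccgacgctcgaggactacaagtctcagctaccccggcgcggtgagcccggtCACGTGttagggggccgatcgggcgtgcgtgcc
Mnt: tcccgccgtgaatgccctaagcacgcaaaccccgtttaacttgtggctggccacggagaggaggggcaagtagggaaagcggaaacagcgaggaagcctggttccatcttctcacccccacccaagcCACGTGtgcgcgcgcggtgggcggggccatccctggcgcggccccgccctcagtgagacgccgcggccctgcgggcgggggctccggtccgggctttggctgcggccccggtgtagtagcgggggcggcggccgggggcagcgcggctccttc
Mxd4: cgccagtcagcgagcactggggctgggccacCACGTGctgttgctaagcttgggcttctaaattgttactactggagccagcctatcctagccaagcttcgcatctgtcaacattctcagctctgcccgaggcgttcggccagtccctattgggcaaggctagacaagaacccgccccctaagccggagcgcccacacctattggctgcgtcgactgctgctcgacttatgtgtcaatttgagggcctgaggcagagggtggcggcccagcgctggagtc
Mycl: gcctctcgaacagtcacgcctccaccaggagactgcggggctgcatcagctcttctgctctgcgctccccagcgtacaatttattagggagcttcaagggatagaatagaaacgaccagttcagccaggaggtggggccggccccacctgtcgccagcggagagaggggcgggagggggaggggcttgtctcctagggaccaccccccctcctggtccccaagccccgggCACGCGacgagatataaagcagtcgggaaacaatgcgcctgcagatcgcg
Mxd1: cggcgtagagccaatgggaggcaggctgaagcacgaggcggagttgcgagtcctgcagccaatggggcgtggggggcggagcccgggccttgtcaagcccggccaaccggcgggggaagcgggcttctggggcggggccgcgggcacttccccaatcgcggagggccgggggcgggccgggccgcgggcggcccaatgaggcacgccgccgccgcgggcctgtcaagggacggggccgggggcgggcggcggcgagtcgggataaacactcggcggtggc
They lie at chr12:76962219-76962498 on the minus strand (Max), chr11:74830674-74830953 on the plus strand (Mnt), chr5:34187681-34187960 on the minus strand (Mxd4), chr4:122995681-122995960 on the plus strand (Mycl) and chr6:86669130-86669409 on the minus strand (Mxd1).

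CACGTG, which reads the same on both strands, occurred in the windows of Max, Mnt and Mxd4. These are 3 of the members' 10 windows, where 7.15% of the 32851 promoter windows hold it. The members' windows are rich in GC (56.0 to 76.7%, median over all windows 52.7%) and in CG pairs (17 to 49, median 7). CACGTG itself holds a CG pair, and the shares were not adjusted for this. In Max it spans the start site, beginning 3 bases before it, in Mnt it begins 123 bases before the start and in Mxd4 219 bases before it. CACGCG, searched on both strands, was found once each in Mycl, beginning 20 bases before the start and followed by a TATAAA that begins 8 bases before it (13.6% of all windows), and in Mga, where it reads CGCGTG and begins 21 bases before the start (9.27% of all windows). CATGCG and CATGTG, on both strands, occurred in the members' windows once each, at different Mxi1 starts (6.50% and 14.2% of all windows). The paired E-box consensus of ChREBP, the carbohydrate response element, was in no member's window and in 0.119% of all windows, which says only that these letters are not in these windows. Of the E-box forms searched, neither Mxd1 nor Mxd3 held any. All 3 genes with CACGTG were called higher, Mxd4 only barely, while Mycl with CACGCG was lower and Mga with CGCGTG was higher. Among all genes tested with a window, 38.3% of the 1121 with CACGTG were called higher and 25.4% lower, against 29.0% higher and 28.6% lower of the 8508 without it. This is a description of annotated sequence: binding was not measured.

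Myc (ENSMUSG00000022346.15; chromosome 15, 61985391 to 61990374, plus strand, GRCm38) is the growth-promoting activator of the network. It was read at 110.5, 110.2 and 111.5 CPM in the ChREBP-beta libraries and at 48.5, 55.8 and 52.1 CPM in the GFP libraries. The groups were far apart, and the ChREBP-beta libraries lay closer together than the GFP libraries (SD 0.701 against 3.66 CPM). With ChREBP-beta the coefficient of variation, 0.633%, was below the 2.23% that counting error alone gives. The difference in spread is therefore not read as a trait of the groups. The rise was 2.12-fold (95% interval 1.99 to 2.27; log2 fold change 1.09, SE 0.046, edgeR adjusted p = 4.03e-16), larger in size than that of 89.4% of the genes tested. It rests on 6033 counts over the ChREBP-beta libraries and 2872 over the GFP libraries, none of them split between genes.

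Mycl (ENSMUSG00000028654.13; chromosome 4, 122995652 to 123002485, plus strand) encodes L-Myc, an activator with a narrower range of tissues. It had 0, 1 and 2 counts in the ChREBP-beta libraries and 27, 27 and 26 counts in the GFP libraries. The GFP libraries lay closer together than counting error alone gives (coefficient of variation 2.80% against 19.4%), so their SD understates the uncertainty. Every ChREBP-beta library was far below the GFP libraries. Scaled by depth, the GFP level of 1.45 ± 0.0406 CPM (SD, n = 3) was 26.4 times that with ChREBP-beta, with an exact 95% counting interval of 8.70 to 131 for this ratio of 80 to 3 counts. The fitted log2 fold change was -4.56 (edgeR adjusted p = 8.21e-07) and depends on the prior count at such depth. With a mean CPM in the lowest 2.95% of the genes tested, Mycl had the largest SE of the members, 0.618.

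Max (ENSMUSG00000059436.13; chromosome 12, 76937269 to 76962201, minus strand), the shared partner of every other member, rose 1.33-fold. It stood at 85.4, 90.9 and 89.6 CPM in the ChREBP-beta libraries and at 67.0, 68.6 and 63.7 CPM in the GFP libraries, with no overlap (log2 fold change 0.42, SE 0.044, edgeR adjusted p = 1.36e-08). The 95% interval of its log2 fold change, 0.33 to 0.51, lay wholly below that of Myc, 0.99 to 1.18. The ratio of Myc to Max counts per exon length was 1.66 ± 0.0547 with ChREBP-beta and 1.04 ± 0.0703 with GFP (SD, n = 3 each), so the level of Myc transcript per Max transcript was 1.59 times as high.

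Mxd1 (ENSMUSG00000001156.9; chromosome 6, 86647042 to 86669161, minus strand), an antagonist of Myc known from differentiating cells, was the Mxd gene that fell. The ChREBP-beta libraries held 3.92, 3.19 and 2.95 CPM and the GFP libraries 8.999, 7.25 and 7.63 CPM, so that the highest ChREBP-beta library was well below the lowest GFP library. It was 2.37-fold lower (log2 fold change -1.25, SE 0.167, edgeR adjusted p = 6.65e-07). Its libraries varied by 15.04% with ChREBP-beta and 11.6% with GFP (coefficient of variation), where counting error alone gives 12.8% and 8.26%. GFP replicate 1 was the highest of the GFP libraries.

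Of the other Mxd genes, Mxi1 rose, Mxd4 was barely called higher and Mxd3 did not pass the test. Mxi1 (also called Mxd2; ENSMUSG00000025025.14; chromosome 19, 53310518 to 53375810, plus strand) rose 1.34-fold, with 33.0, 34.2 and 30.6 CPM in the ChREBP-beta libraries and 25.7, 24.6 and 22.8 CPM in the GFP libraries (log2 fold change 0.42, SE 0.070, edgeR adjusted p = 1.41e-05). Every ChREBP-beta library was above every GFP library, and 1 of the 6 counts included reads split between genes. The RefSeq table holds several start sites of Mxi1, and gene counts do not separate them.

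Mxd4 (ENSMUSG00000037235.13; chromosome 5, 34173883 to 34187720, minus strand) was the most abundant Mxd transcript, at 105.4, 104.9 and 105.9 CPM in the ChREBP-beta libraries and 100.2, 96.7 and 100.8 CPM in the GFP libraries. The groups did not overlap but differed by 1.06-fold (log2 fold change 0.09, SE 0.037, edgeR adjusted p = 0.0458). This call was lost under 12 of the 16 alternatives, with adjusted p between 0.0354 and 0.356 over all of them. Mxd3 (ENSMUSG00000021485.14; chromosome 13, 55325168 to 55329823, minus strand), which is linked to dividing cells, had 16.0, 14.9 and 15.9 CPM in the ChREBP-beta libraries and 16.7, 14.9 and 14.9 CPM in the GFP libraries. Its groups overlapped (log2 fold change 0.01, 95% interval -0.18 to 0.20, edgeR adjusted p = 0.940), so a change of more than 1.15-fold upwards lies outside the interval. Mxd3 shares 105 exon bases with Prelid1 on the opposite strand, a gene read at 373 CPM with ChREBP-beta and 320 CPM with GFP, and without the strand setting reads there cannot be told apart. Likewise Mxd4 shares 514 exon bases with the antisense gene Gm42846, and Mxi1 shares 194 with Gm10197.

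Mnt and Mga, the large Max partners that repress transcription, rose by 1.30-fold and 1.27-fold. Mnt (ENSMUSG00000000282.12; chromosome 11, 74830920 to 74845725, plus strand), which unlike most Mxd genes is found in dividing and resting cells alike, had 26.6, 24.8 and 25.4 CPM in the ChREBP-beta libraries and 19.8, 21.5 and 17.9 CPM in the GFP libraries, 1.30-fold higher without overlap (log2 fold change 0.37, SE 0.079, edgeR adjusted p = 2.53e-04). Mga (ENSMUSG00000033943.15; chromosome 2, 119897228 to 119969581, plus strand), which carries a T-box besides its bHLHZip, had 120.3, 113.6 and 109.7 CPM in the ChREBP-beta libraries and 87.9, 86.8 and 95.6 CPM in the GFP libraries. It was 1.27-fold higher (log2 fold change 0.35, SE 0.043, edgeR adjusted p = 2.28e-07), again without overlap. The 95% intervals of Max, Mxi1, Mnt and Mga overlapped each other, and their log2 fold changes lay at the 63.7th to 69.9th percentile of all genes tested by size.

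**Figure D2:**
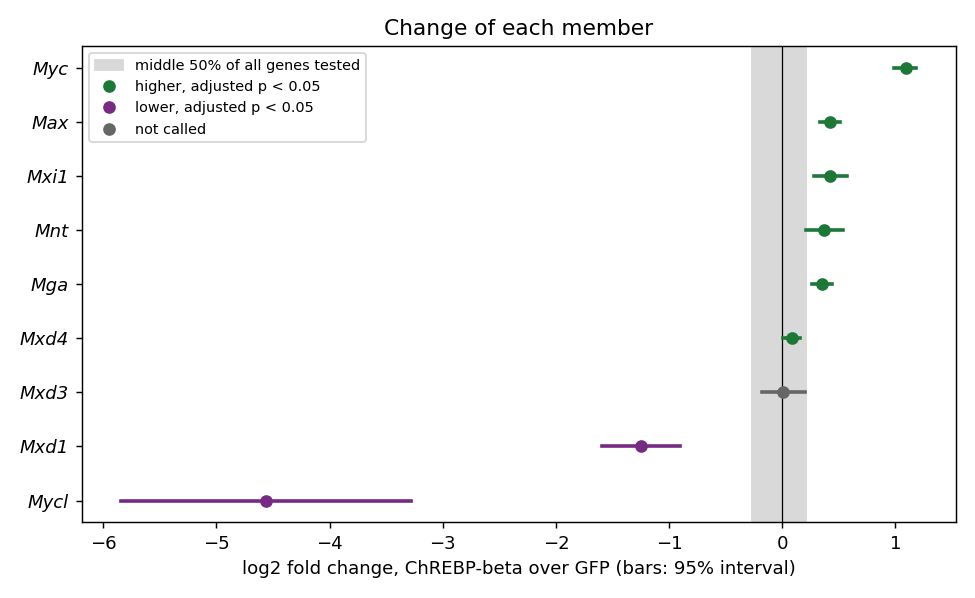
Log2 fold change of each member, ChREBP-beta over GFP, with its 95% interval from the edgeR fit. The grey band holds the middle 50% of all genes tested, from -0.27 to 0.21. Myc, at 1.09, stands to the right of the 4 members between 0.35 and 0.42, and Mxd1, at -1.25, and Mycl, at -4.56, stand to the left.

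Per exon length, Myc and Max were the most abundant transcripts of the network in both groups. With ChREBP-beta the order was Myc at 40.8 ± 0.258 CPM per kb, Max at 24.6 ± 0.803, Mxd4 at 12.4 ± 0.0549, Mga at 7.46 ± 0.349, Mxd3 at 6.59 ± 0.248, Mnt at 5.53 ± 0.200, Mxi1 at 4.78 ± 0.269, Mxd1 at 0.474 ± 0.0713 and Mycl at 0.0139 ± 0.0143 CPM per kb (SD, n = 3). With GFP it was Myc at 19.2 ± 1.35 CPM per kb, Max at 18.5 ± 0.703, Mxd4 at 11.7 ± 0.261, Mxd3 at 6.54 ± 0.456, Mga at 5.87 ± 0.312, Mnt at 4.27 ± 0.387, Mxi1 at 3.57 ± 0.215, Mxd1 at 1.12 ± 0.130 and Mycl at 0.359 ± 0.0101 CPM per kb (SD, n = 3). The gaps between Myc and Max and between Mxd3 and Mga with GFP were smaller than the sum of their SDs, so those neighbours were not separated. With ChREBP-beta every neighbouring pair was separated by this measure. Some of these SDs lay below counting error, as for Myc and Mxd4 with ChREBP-beta (coefficient of variation 0.633% and 0.442%, against 2.23% and 2.29% from counting). The order rests on the length assigned to each gene. With the longest coding transcript in place of all annotated exons, Max led with GFP (34.2 CPM per kb, against 25.6 for Mxd4 and 22.3 for Myc), and Myc (47.4) and Max (45.7) with ChREBP-beta were not separated.

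**Figure D3:**
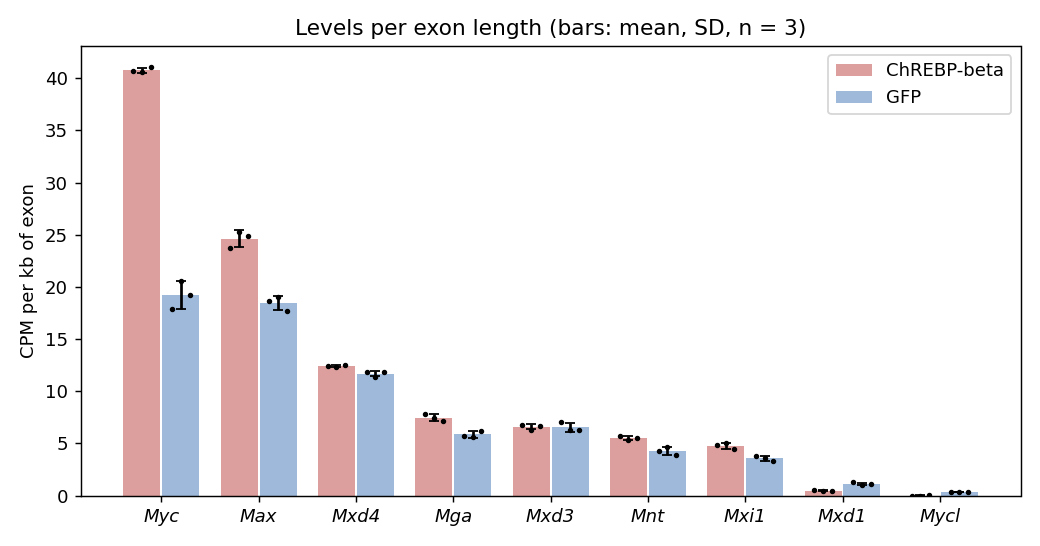
CPM per kb of annotated exon for each member, with ChREBP-beta left of GFP, bars for the mean of 3 libraries with SD, and a dot for each library. Myc stands at 40.8 CPM per kb with ChREBP-beta and 19.2 CPM per kb with GFP, and Mxd1 and Mycl are the lowest in both.

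The transcripts of the antagonists were weighed against Myc as a sum. Mxd1, Mxi1, Mxd3, Mxd4 and Mnt together stood at 29.8 ± 0.446 CPM per kb with ChREBP-beta and 27.2 ± 0.896 CPM per kb with GFP (SD, n = 3 each), 1.10 times as high. The ratio of Myc to this sum was 1.34, 1.38 and 1.39 in the ChREBP-beta libraries and 0.633, 0.762 and 0.725 in the GFP libraries, without overlap, 1.94 times as high on average. Myc made up 39.7% of the summed CPM per kb of the 9 members with ChREBP-beta and 27.0% with GFP. Mxd1, the antagonist that fell, made up 0.462% with ChREBP-beta and 1.58% with GFP. The levels of these ratios rest on the lengths used: with the longest coding transcript, the ratio of Myc to the antagonists averaged 0.915 with ChREBP-beta and 0.464 with GFP, and Myc made up 30.95% of the members' summed level with ChREBP-beta and 19.99% with GFP. These ratios compare transcripts, not proteins, and carry no test because the members were chosen with results known.

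Outside the members, Mlx, the partner ChREBP shares with Mxd1, Mxd4 and Mnt, stood at 26.8 ± 2.16 CPM with ChREBP-beta and 31.8 ± 1.90 CPM with GFP (SD, n = 3 each; log2 fold change -0.25, edgeR adjusted p = 0.00503, with split reads in all 6 libraries). Its call was lost without ChREBP-beta replicate 2 (log2 fold change -0.18, edgeR adjusted p = 0.0535). The other Myc gene, Mycn, had 1 count in all 6 libraries together.

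Genes listed as induced by Myc were mostly higher. Of 40 tested, 33 were called higher, 3 lower and 4 not called, with a median log2 fold change of 0.40, where over all genes tested 29.5% were higher, 29.3% lower and the median was -0.004. The list was written with earlier results of these data known, and no test of it as a set was made. Without GFP replicate 1, 34 were called higher and 3 lower. Its members work mainly in ribosome assembly. Nolc1, a nucleolar assembly factor, stood at 198 ± 7.93 CPM with ChREBP-beta and 115 ± 2.32 CPM with GFP (SD, n = 3 each), 1.72-fold higher. Wdr43, of the small-subunit processome, was 1.66-fold higher and Nop56, a core protein of box C/D particles, 1.54-fold (edgeR adjusted p = 1.84e-15, 3.50e-15 and 3.34e-14 for the 3 genes). Ncl, nucleolin, the most abundant of the list over the mean of both groups, stood at 1514 ± 19.9 CPM with ChREBP-beta and 1100 ± 11.5 CPM with GFP (SD, n = 3 each; 1.38-fold, edgeR adjusted p = 6.41e-14). The range of the 33 risers was modest, from 0.13 for Ldha to 0.85 for Nop16 on the log2 scale, each less than Myc itself.

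The 3 genes of that list that were lower were Ccnd2, Cdk4 and Hspe1. Ccnd2, cyclin D2, had 5.87, 5.69 and 6.76 CPM in the ChREBP-beta libraries and 44.1, 45.6 and 44.2 CPM in the GFP libraries, 7.32-fold lower (edgeR adjusted p = 1.55e-19). Cdk4, whose counts include split reads in all libraries, and Hspe1, a mitochondrial chaperonin, were lower by small steps (log2 fold change -0.23 and -0.31, edgeR adjusted p = 1.57e-06 and 4.95e-06). Odc1, the entry enzyme of polyamine synthesis and a classical Myc target, stood at 142 ± 4.32 CPM with ChREBP-beta and 145 ± 4.38 CPM with GFP (SD, n = 3 each; edgeR adjusted p = 0.419), while Srm, the spermidine synthase of the same pathway, was 1.58-fold higher (edgeR adjusted p = 4.25e-12). Tert, Cdc25a and Phb also did not pass the test (log2 fold change 0.62, 0.13 and 0.10). A promoter window with CACGTG was present for 11 of the listed genes, of which 9 were higher, and 21 had a window without it, of which 17 were higher.

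**Figure D4:**
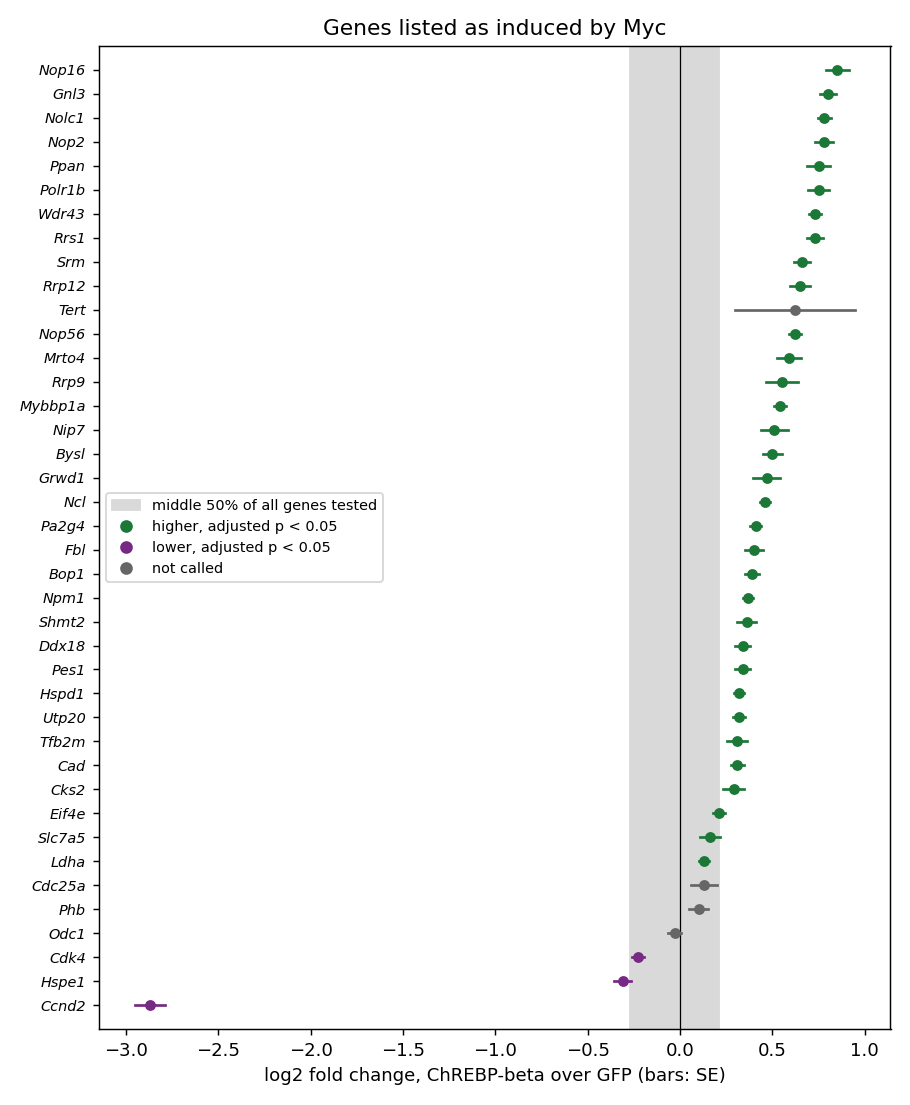
Log2 fold change, ChREBP-beta over GFP, of the 40 genes listed as induced by Myc, sorted, with bars for the SE. Most points lie right of the grey band that holds the middle 50% of all genes tested, and Ccnd2, at -2.87, lies far to the left.

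Genes listed as repressed by Myc split evenly, 7 higher, 7 lower and 1 not called of 15 tested (median log2 fold change -0.20). That is 46.7% in each direction, beside 29.5% higher and 29.3% lower of all genes tested. The list was not tested as a set. Ndrg1, a stress-linked gene that Myc lowers in many lines, stood at 154 ± 12.5 CPM with ChREBP-beta and 262 ± 11.4 CPM with GFP (SD, n = 3 each; log2 fold change -0.77, edgeR adjusted p = 9.77e-14). Col1a2, a collagen chain, was also lower (-0.53), whereas Pdgfrb, a growth factor receptor, and Itgb1, an integrin chain, were higher (0.87 and 0.44; edgeR adjusted p = 3.08e-14, 3.48e-18 and 1.77e-13 for the 3 genes).

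The cofactors through which the network acts moved in both directions. Among 16 Myc coactivators 9 were higher (56.25%), 3 lower (18.75%) and 4 not called (median log2 fold change 0.12). Over all genes tested 29.5% were higher and 29.3% lower, and the difference was not tested. Wdr5, a chromatin docking partner of Myc that is also a PRC1.6 subunit, had 89.6, 91.1 and 91.6 CPM in the ChREBP-beta libraries and 59.4, 60.0 and 60.8 CPM in the GFP libraries, 1.51-fold higher (edgeR adjusted p = 6.69e-12). Hcfc1, another Myc-binding cofactor, and Ruvbl2, a helicase-like subunit of acetyltransferase complexes with split reads, had log2 fold changes of 0.24 and 0.32 (edgeR adjusted p = 6.32e-07 and 3.12e-05), and Kat2b, an acetyltransferase, one of -0.30 (edgeR adjusted p = 1.36e-04). Trrap, the large scaffold that Myc contacts, stood at 179 ± 2.47 CPM with ChREBP-beta and 178 ± 3.81 CPM with GFP (SD, n = 3 each; edgeR adjusted p = 0.936).

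Of the Sin3 and NCoR corepressors, through which Mxd and Mnt repress, most did not pass the test. Of 18 tested, 3 were higher, 4 lower and 11 not called, or 38.9% called beside 58.7% of all genes, a difference that was not tested. Sin3a, the direct partner of Mxd proteins, stood at 70.5 ± 0.546 CPM with ChREBP-beta and 71.8 ± 2.32 CPM with GFP (SD, n = 3 each; edgeR adjusted p = 0.629). Ncor1 was higher (log2 fold change 0.18), and the Sin3-associated Arid4a and the deacetylase gene Hdac1 were lower (-0.48 and -0.15; edgeR adjusted p = 8.96e-06, 1.95e-06 and 0.00125 for the 3 genes).

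In the PRC1.6 complex, the setting in which Mga acts, 4 subunits were higher, 2 lower and 8 not called of 14 tested (median log2 fold change 0.06). Thus 42.9% were called, beside 58.7% of all genes tested, a difference that was not tested. Tfdp1, the dimer partner of E2F factors, rose (log2 fold change 0.39, edgeR adjusted p = 1.28e-10), as did Rybp (0.29, edgeR adjusted p = 3.61e-05), while the ubiquitin ligase subunit Rnf2 was lower (-0.34, edgeR adjusted p = 1.15e-07). Of 18 germ cell genes that PRC1.6 holds silent in mouse embryonic stem cells, 7 had no count in any library and 2 could be tested. Their summed level was 15.1 to 16.7 CPM with ChREBP-beta and 16.2 to 17.7 CPM with GFP, nearly all from Sycp1 and Zcwpw1, which did not pass the test (edgeR adjusted p = 0.608 and 0.253).

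Genes that govern the stability of the Myc protein split into 7 higher, 5 lower and 8 not called of 20 (median log2 fold change 0.05). Thus 60.0% were called, near the 58.7% of all genes tested, and the list was not tested as a set. Usp36, a nucleolar deubiquitinase that stabilises Myc, and Cip2a and Set, inhibitors of the phosphatase that marks Myc for decay, were higher (log2 fold change 0.44, 0.26 and 0.22), and Btrc, an F-box protein of a ubiquitin ligase, was lower (-0.63; edgeR adjusted p = 5.01e-08, 3.63e-06, 1.41e-07 and 1.24e-06 for the 4 genes). Fbxw7, the main F-box protein for Myc, stood at 20.9 ± 1.28 CPM with ChREBP-beta and 18.7 ± 0.935 CPM with GFP (SD, n = 3 each; edgeR adjusted p = 0.0975). Under upper-quartile scaling and scaling by library totals, 4 and 3 members of this list were called higher. The count was also 4 without ChREBP-beta replicate 3.

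Regulators upstream of Myc moved apart, with 8 higher (42.1%), 7 lower (36.8%) and 4 not called of 19 (median log2 fold change 0.05). Of all genes tested, 29.5% were higher and 29.3% lower, and the difference was not tested. Cnbp and Fubp1, proteins that bind single-stranded control elements of Myc, rose (log2 fold change 0.52 and 0.42, edgeR adjusted p = 3.80e-13 and 6.23e-11). The Wnt pathway factors Tcf7l1, Tcf7l2 and Lef1 fell (-0.96, -0.53 and -0.99, edgeR adjusted p = 2.03e-11, 1.35e-06 and 1.38e-04), while Ctnnb1 of that pathway did not pass the test (-0.05, edgeR adjusted p = 0.148). Egr1, an immediate early factor, also fell (-0.57, edgeR adjusted p = 1.35e-11). Under upper-quartile and library-total scaling 5 were called higher. In the list of FoxO factors, which induce Mxi1 and Mxd1, and of genes that restrain growth signalling, 2 were higher, 4 lower and 4 not called of 10. The share called in this list, 60.0%, was near the 58.7% of all genes tested, and the list was not tested as a set. Foxo6 was higher (log2 fold change 0.91, edgeR adjusted p = 0.00672) but not called without ChREBP-beta replicate 3 (0.66, edgeR adjusted p = 0.0783), which left 1 higher, as did a filter at mean CPM 5. The stress sensors Sesn3 and Sesn1 and the cyclin gene Ccng2 fell (-0.91, -0.67 and -0.58; edgeR adjusted p = 7.50e-13, 9.11e-11 and 1.89e-05), Foxo3 fell by a small step (-0.24, edgeR adjusted p = 0.00121), and the repressor gene Bcl6 rose (0.45, edgeR adjusted p = 1.27e-04).

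Other bHLH factors that can occupy E-boxes also changed in both directions. Of 14 tested, 5 were higher (35.7%), 4 lower (28.6%) and 5 not called (median log2 fold change 0.00). These shares are near the 29.5% higher and 29.3% lower of all genes tested. Bhlhe40, a repressor of the clock, and Mitf, a factor of the lysosome family, rose 2.61-fold and 2.80-fold, and Tfeb, a close relative of Mitf, was 2.50-fold lower (edgeR adjusted p = 6.23e-21, 3.69e-12 and 7.70e-10). Usf1 and Usf2, the ubiquitous E-box binders, did not pass the test (edgeR adjusted p = 0.113 and 0.941).

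**Figure D5:**
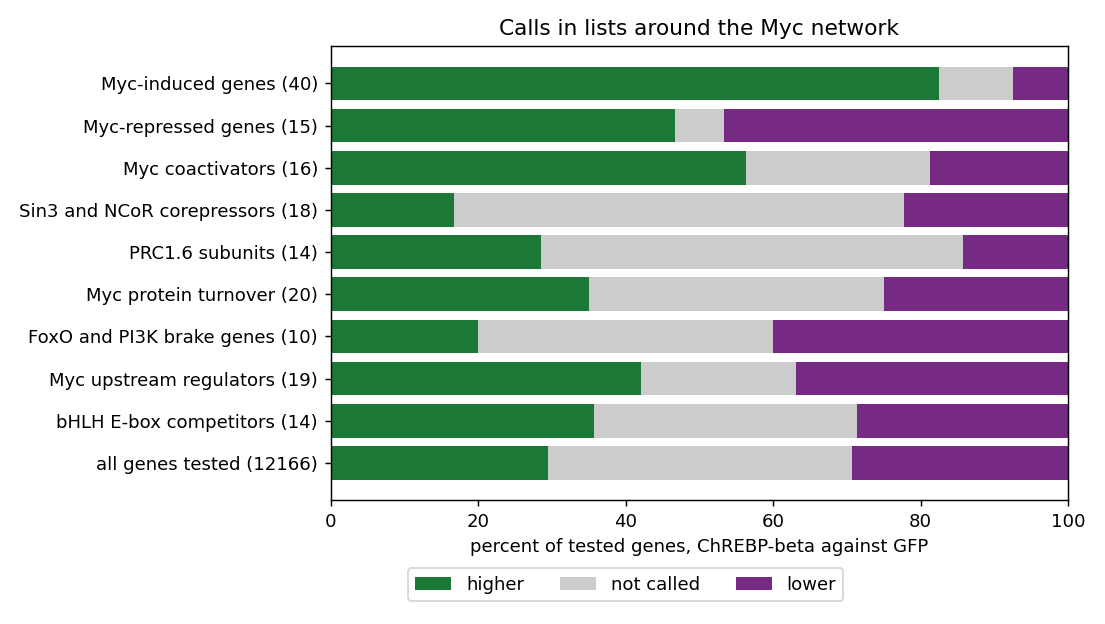
Share of tested genes called higher, not called and called lower with ChREBP-beta against GFP in each list, with the number tested in brackets, and in all 12166 genes tested in the last bar. The genes listed as induced by Myc have 33 of 40 higher, and the Sin3 and NCoR list has 11 of 18 not called.

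By distance between their patterns over the 6 libraries (log2 CPM centred on each gene's mean, 11802 named genes compared), the genes nearest to Myc were Galnt2, Fam57b and Fads3 (distance 0.107, 0.109 and 0.117). Nearest to Max were Ss18, Phlpp1 and Papola (0.0228, 0.0423 and 0.0468). Tle2, B4galnt1 and Pygo1 were nearest to Mxd1 (0.151, 0.249 and 0.249) and Nefl, Npy4r and Susd5 to Mycl (0.606, 0.753 and 0.858). With 2 groups of libraries such likeness mainly reflects a similar fold change: Galnt2 was 2.22-fold higher, Ss18 1.34-fold higher and Tle2 2.26-fold lower. Galnt2, B4galnt1 and Nefl include split reads.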

How the data were processed

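The authors deposited 1 table of estimated counts by gene symbol, a column for each library, without normalization. Of these values 7.74% are not whole, so some reads were split between genes. Per the submitters' processing notes, fastp, Bowtie2 2.0.0.5 and TopHat2 2.0.0 were used, and GRCg6a, which is a chicken assembly, is listed as the build, although the symbols are those of mouse genes. The sources used here name no counting tool, mouse build or strand setting. Deposited counts per library were 17600238 to 19163834.

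Rows sharing a symbol were summed (22298 rows, 22272 symbols) and rounded. Genes kept by filterByExpr (minimum count 10, minimum total 15) were scaled by TMM and tested with edgeR 4.0.16 (R 4.3.3, glmQLFit and glmQLFTest, two-sided, no further terms). Standard errors are the size of the log2 fold change over the root of the F statistic, and 95% intervals use the test's degrees of freedom. Promoter windows are RefSeq's (GRCm38.p6), and locations and exon lengths were looked up by symbol in GENCODE M21 (GRCm38), possibly another build than the authors used. The procedure was tested on simulated data. Intervals from counts cover counting error only.

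The members, gene lists and tests were chosen with earlier results of these data known. Named genes are the members, in each list its most abundant gene and the 4 of smallest adjusted p, and the 3 genes nearest in pattern to Myc, Max, Mycl and Mxd1. 1 gene that this rule names is not reported here. Others were named after their values were seen. Pvt1, the neighbour of Myc, was not analysed here. Alternatives were RLE, upper-quartile and library-total scaling, TMM without Mlxipl and the 10 most abundant genes, no filter, a filter at mean CPM 5, DESeq2 1.42.0, the voom method of limma 3.58.1, the replicate number as a block, unrounded counts and each library left out. Replicates differed beyond sampling noise (chi-square per degree of freedom 2.15 to 3.96), so all 6 libraries were kept.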

Additional observations from a re-analysis of the deposited data

How the results depend on the processing

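Myc, Max, Mxi1, Mnt, Mga, Mxd1 and Mycl kept their direction and their call in all 111 refits in which they were tested. Mycl could not be tested at a mean CPM of at least 5. Mxd4 was not called under upper-quartile scaling (log2 fold change 0.054), library totals (0.040), no filter (0.090), a filter at mean CPM 5 (0.072), limma-voom (0.087), DESeq2 (0.091) or the replicate block (0.087). With each library left out it lay between 0.074 and 0.103 and was called once. Mxd3, never called, changed sign under upper-quartile scaling (-0.024), library totals (-0.037) and a mean CPM of at least 5 (-0.006), and lay between -0.015 and 0.068 with each library left out. The cause was not tested. The replicate number as a block changed no other member's call and left 6902 genes called, against 7145 without it. Same-numbered libraries did not deviate together (correlations -0.0320, -0.00673 and -0.0966), and no library correlated best with its own number, so the numbers are not taken as pairs. The ratio of Myc to its antagonists, 1.94 times as high with ChREBP-beta, was 1.94 without lengths, 1.97 with the longest coding transcript (chosen after seeing the data) and 1.84 to 2.01 with each library left out. Of the genes named in the lists and called, Mlx lost its call without ChREBP-beta replicate 2 and Foxo6 without ChREBP-beta replicate 3. The genes listed as induced by Myc had 32 to 34 called higher under every alternative. Upper-quartile and library-total scaling moved the share of calls that were higher to 44.1% and 41.8%, against 50.2%. Depth limits Mycl, at 3 counts over the ChREBP-beta libraries.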
